A study of Mus musculus with 24 samples.

Results

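The levels of 10 genes of the Wnt pathway were followed in lungs of TGF-β1 transgenic and wild-type mice: the ligands Wnt4, Wnt5a and Wnt7b, the R-spondin receptors Lgr4, Lgr5 and Lgr6, the secreted inhibitors Frzb and Dkk2, the transcription factor Lef1 and the feedback target Axin2. They were chosen by name, with earlier results of these data known. Counts of members beside shares of all genes are therefore descriptive and give the list no independent support. All 10 were found among the 13499 genes measured, each through the probe set with the highest mean over the 24 arrays. Wnt4 had 2 probe sets and the other members 1 each. Dkk2 was singled out beforehand for a higher level in TG mice of C57BL/6J, so its values in that strain are a description of a gene chosen with them known.

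Wnt proteins are secreted lipid-modified ligands that bind Frizzled receptors. With the LRP5 or LRP6 co-receptor this stabilises β-catenin, which enters the nucleus and acts with TCF and LEF factors, while other Wnt signals run through Ror receptors without β-catenin. R-spondins, bound by the Lgr receptors, raise the sensitivity of cells to Wnt, whereas Dickkopf proteins and secreted Frizzled-related proteins hold it down. In the lung the pathway is known for its part in branching, in the upkeep of alveolar epithelium and in scarring.

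RNA of the right lung lobe was profiled, and each array was taken as 1 mouse. TG mice carried a TGF-β1 transgene that doxycycline switches on, and all 24 mice, WT included, drank doxycycline for 2 weeks. The prone strains named by the series design were A/J (3 TG, 1 WT), AKR/J (3 TG, 1 WT) and C57BL/6J (2 TG, 2 WT), and the resistant strains were 129, labelled S129 (3 TG, 1 WT), BALB/cJ (3 TG, 1 WT) and C3H (3 TG, 1 WT). The fibrosis field of the labels has 129, BALB/cJ and C3H as prone, and read that way every prone minus resistant difference changes sign. The labels used here do not name the promoter that drives the transgene, nor the age or sex of the mice.

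Levels are log2 intensities, and array medians ran from 7.759 to 7.835. Across genes, mice sharing strain and genotype had correlations of 0.9916 to 0.9972 (17 pairs). H2-Ea, an MHC class II gene that some strains lack, read 6.27 to 6.90 in 129 and C57BL/6J mice and 12.21 to 13.55 in the other strains. Lung markers were bright, with mean levels of 12.35 to 13.04 in TG mice and 12.59 to 12.73 in WT mice for 7 alveolar type 2 genes. Calls below rest on limma with Benjamini-Hochberg adjustment over 13499 genes at 0.05, and 5 strains had a lone WT mouse, taken to have the spread of the remaining groups.

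Promoter sequence was looked at for the 3 members with the largest difference in any strain among those with a RefSeq window (GRCm38.p6): Frzb and Dkk2, which were higher in TG lungs of some strains, and Lef1, which was lower. Each line gives the 250 bases before an annotated start, 5′ to 3′ on the gene's strand, and capitals mark a match to a TCF/LEF motif (CTTTGA or CTTTGT, both strands) or to a SMAD box (CAGAC, both strands).
Dkk2, chr3:132085042-132085291, plus strand: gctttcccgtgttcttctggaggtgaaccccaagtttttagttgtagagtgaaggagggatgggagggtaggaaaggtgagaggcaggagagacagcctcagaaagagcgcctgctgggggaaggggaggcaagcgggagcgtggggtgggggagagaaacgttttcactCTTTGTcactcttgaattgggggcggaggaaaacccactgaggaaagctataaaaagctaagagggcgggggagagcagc
Frzb, chr2:80447397-80447646, minus strand: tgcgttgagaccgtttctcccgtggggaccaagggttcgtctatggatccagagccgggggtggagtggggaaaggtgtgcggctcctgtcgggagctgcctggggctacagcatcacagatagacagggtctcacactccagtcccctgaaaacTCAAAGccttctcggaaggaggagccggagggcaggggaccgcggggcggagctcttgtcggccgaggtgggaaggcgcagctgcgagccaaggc
Lef1, chr3:131110047-131110296, plus strand: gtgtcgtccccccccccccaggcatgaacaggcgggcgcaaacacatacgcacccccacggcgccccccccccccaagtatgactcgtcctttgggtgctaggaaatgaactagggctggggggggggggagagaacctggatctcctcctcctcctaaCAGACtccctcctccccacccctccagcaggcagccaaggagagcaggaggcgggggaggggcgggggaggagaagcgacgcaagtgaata
The Dkk2 match, CTTTGT, began 80 bases before the start and the Frzb match, TCAAAG on the printed strand, 95 bases before it. This Lef1 window held a SMAD box 91 bases before the start and no TCF/LEF match, and a further start of Lef1 had TCF/LEF matches in its own window. Windows were found for 7 of the 10 members. Of these, 3 held a TCF/LEF match and 2 a SMAD box in at least 1 window. Among all 32817 windows, 27.6% held a TCF/LEF match and 42.2% a SMAD box, shares per window that cannot be set against counts of genes, since Lef1 alone has 4 windows. A match is a run of letters, and binding was not measured.

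Over all 6 strains, TG lungs held more Frzb, Wnt5a, Wnt7b and Lgr6 RNA and less Lef1 RNA than WT lungs, and the other 5 members did not pass the test. That is 5 of 10 members called, where 26.7% of all genes were called (13.2% higher and 13.5% lower). The median difference, TG minus WT, was 0.14 over the members and near 0 over all genes (-6e-04). In RNA of a whole lobe, fewer cells of a type and less RNA per cell cannot be told apart.

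**Figure D1:**
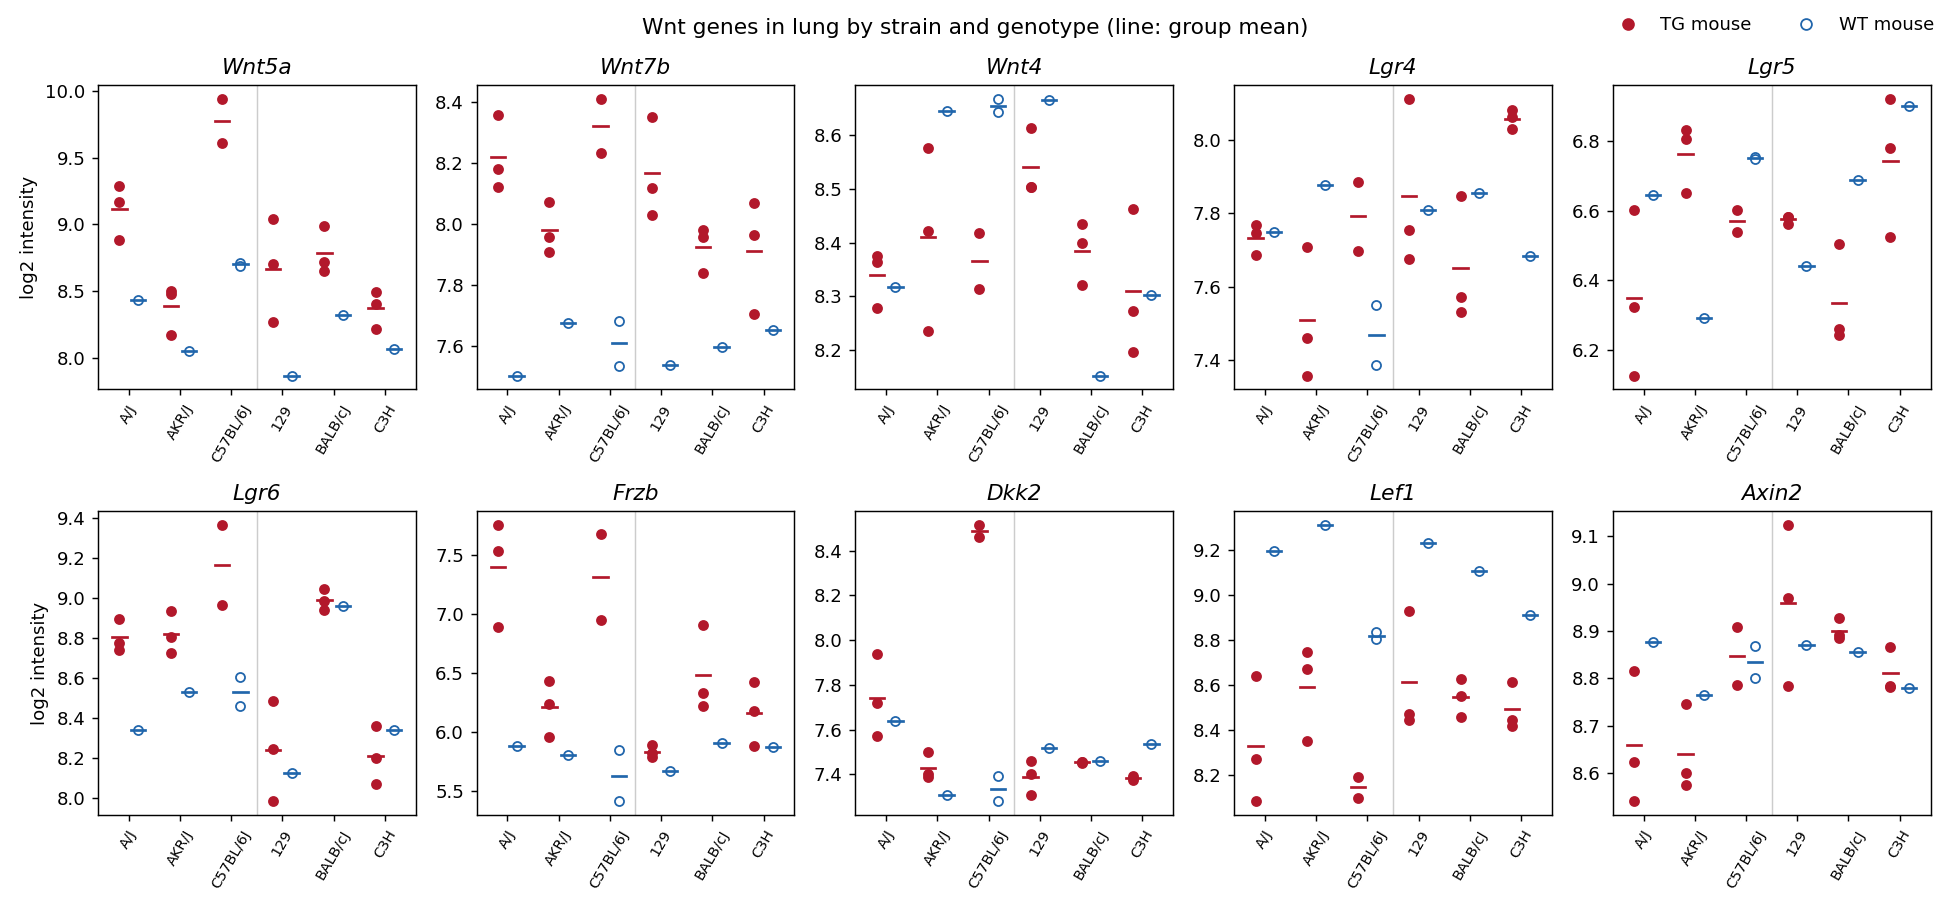
Log2 intensity (vertical axis, scaled to each gene) of the 10 Wnt genes in every mouse, by strain, with prone strains left of the grey line. Filled red points are TG mice, open blue points are WT mice and short lines are group means. Wnt7b keeps all 17 TG mice above all 7 WT mice, Lef1 keeps TG below WT in every strain, and Dkk2 stands apart in the 2 C57BL/6J TG mice at 8.52 and 8.46.

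Wnt5a, the ligand best known for signalling without β-catenin, was higher in TG lungs by 0.63 ± 0.10 on the log2 scale (SE), or 1.55-fold, with an adjusted p of 6.9e-05 by limma. Wnt5a levels in C57BL/6J were 9.94 and 9.61 in TG mice, against 8.71 and 8.69 in WT mice. A/J read 9.29, 9.17 and 8.89 in TG mice, against 8.44 in the WT mouse, and AKR/J read 8.50, 8.48 and 8.17 in TG mice, against 8.05. Among resistant strains, the 129 levels were 8.27, 8.70 and 9.04 in TG mice, against 7.87 in the WT mouse. Every TG mouse of these 4 strains stood above its own strain's WT mice. BALB/cJ gave 8.72, 8.65 and 8.99 in TG mice, against 8.32 in WT, and C3H gave 8.49, 8.40 and 8.22 in TG mice, against 8.07 in WT. The same order thus held in all 6 strains, although strains differed so much in level that only 8 of 17 TG mice were above the highest WT mouse.

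Wnt7b, a ligand of the airway and alveolar epithelium in lung development, was higher in TG lungs by 0.50 ± 0.07 (log2, SE), or 1.42-fold (limma adjusted p = 7.3e-06). Its levels were 8.23 and 8.41 in C57BL/6J TG mice, against 7.68 and 7.53 in WT mice of that strain. The A/J values were 8.18, 8.36 and 8.12 in TG mice, against 7.50 in WT, and the 129 values were 8.12, 8.03 and 8.35 in TG mice, against 7.54 in WT. These 3 strains had the larger differences, between 0.63 and 0.72. AKR/J held 8.07, 7.96 and 7.91 in TG mice and 7.68 in the WT mouse. For BALB/cJ the levels were 7.96, 7.84 and 7.98 in TG mice and 7.60 in WT. C3H held 7.96, 8.07 and 7.71 in TG mice and 7.65 in WT. Wnt7b was the only member whose genotypes did not overlap across strains, with TG mice at 7.71 to 8.41 and WT mice at 7.50 to 7.68. Of all genes, 1.64% had no overlap of TG and WT mice (1.02% with TG higher).

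Wnt4, a ligand active in kidney and female tract development, had levels of 8.20 to 8.61 in TG mice (median 8.40, n = 17) and 8.15 to 8.67 in WT mice (median 8.64, n = 7). Its difference of -0.08 ± 0.06 (log2, SE; 95% interval -0.19 to 0.04) did not pass the test, with a limma adjusted p of 0.36. The groups overlapped, and TG means were above WT in 3 strains and below in 3. With both probe sets averaged the difference was 0.016.

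Of the Lgr receptors, which were not tested against each other, Lgr6 was higher in TG lungs by 0.25 ± 0.08 (log2, SE), or 1.19-fold, with a limma adjusted p of 0.025. Its C57BL/6J levels were 9.37 and 8.96 in TG mice, against 8.60 and 8.46 in WT mice. In A/J it read 8.77, 8.89 and 8.74 in TG mice, against 8.34 in WT, and in AKR/J 8.80, 8.72 and 8.93 in TG mice, against 8.53 in WT. All TG mice of the prone strains were above their strain's WT mice, which no resistant strain showed. BALB/cJ levels of Lgr6 were 8.98, 9.04 and 8.94 in TG mice, against 8.96 in WT. For 129 they were 8.24, 7.98 and 8.48 in TG mice, against 8.12 in WT, and for C3H 8.07, 8.20 and 8.36 in TG mice, against 8.34 in WT. The call over all strains was lost when C57BL/6J (0.15, limma adjusted p = 0.19), A/J (adjusted p = 0.11) or AKR/J (0.064) was left out and when 1 of 4 single mice was left out: the A/J WT mouse (adjusted p = 0.092), the AKR/J WT mouse (0.0513), C57BL/6J WT mouse 2 (0.059) or C57BL/6J TG mouse 1 (0.0541). It was also lost with array weights (0.22, limma adjusted p = 0.086).

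Lgr4 read 7.36 to 8.11 in TG mice (median 7.75) and 7.39 to 7.88 in WT mice (median 7.75), a difference of 0.04 ± 0.08 (log2, SE; 95% interval -0.13 to 0.21; limma adjusted p = 0.77). Lgr5, a marker of intestinal stem cells, read 6.13 to 6.92 in TG mice (median 6.58) and 6.29 to 6.90 in WT mice (median 6.69), a difference of -0.07 ± 0.08 (95% interval -0.24 to 0.10; adjusted p = 0.59). Neither gene moved one way across strains. Lgr4 TG means exceeded WT means in 3 strains, and Lgr5 TG means did so in 2. The Lgr5 probe set was dim, with a mean of 6.58 that lay below the lower quartile of gene means (6.766).

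Frzb, also called secreted Frizzled-related protein 3, gave the largest difference among the members, 0.82 ± 0.18 (log2, SE) or 1.77-fold, with a limma adjusted p of 0.0013. It reached 7.68 and 6.95 in C57BL/6J TG mice, against 5.85 and 5.41 in WT mice. A/J TG mice held Frzb at 7.76, 6.89 and 7.53, against 5.88 in the WT mouse. These 5 TG mice and 1 BALB/cJ TG mouse at 6.91 held the 6 highest levels. The other BALB/cJ TG mice read 6.33 and 6.22, against 5.91 in WT. AKR/J levels were 6.24, 6.43 and 5.96 in TG mice, against 5.81 in WT, and C3H levels were 5.89, 6.43 and 6.18 in TG mice, against 5.88 in WT. The smallest step was in 129, with 5.79, 5.83 and 5.89 in TG mice, against 5.67 in WT. Every TG mouse was above its own strain's WT mice, and 13 of 17 were above the highest WT mouse. The probe set was dim (mean 6.31), and a filter on dim genes removed it.

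Dkk2, a Dickkopf protein that binds the LRP co-receptors, did not pass the test over all strains (0.23 ± 0.11, log2, SE; limma adjusted p = 0.14). Its C57BL/6J levels were 8.52 and 8.46 in TG mice, against 7.39 and 7.28 in WT mice, a difference of 1.15 ± 0.09 or 2.22-fold (limma adjusted p = 1.4e-06). A/J levels were 7.94, 7.72 and 7.57 in TG mice, against 7.64 in WT, so the groups overlapped there. The AKR/J levels were 7.50, 7.39 and 7.40 in TG mice, against 7.31 in WT. In the resistant strains the 9 TG mice lay between 7.31 and 7.46, against 7.46 to 7.54 in the 3 WT mice. Without C57BL/6J the difference over the remaining strains was -0.01 (adjusted p = 0.90). Ordered by TG mean, C57BL/6J (8.49 ± 0.04, SD, n = 2) stood first and A/J (7.74 ± 0.19, n = 3) next, and BALB/cJ (7.45), AKR/J (7.43), 129 (7.39) and C3H (7.38) followed, each next to neighbours within their spread.

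Lef1, the nuclear partner of β-catenin that is also abundant in T cells, was lower in TG lungs by 1.56-fold, a difference of -0.65 ± 0.08 (log2, SE; limma adjusted p = 1.6e-06). In A/J it read 8.08, 8.27 and 8.64 in TG mice, against 9.20 in WT, and in AKR/J 8.67, 8.35 and 8.75 in TG mice, against 9.31 in WT. C57BL/6J TG mice held Lef1 at 8.19 and 8.10, against 8.80 and 8.83 in WT mice. In each prone strain the TG mice were thus below the WT mice without overlap. Resistant strains gave 8.45, 8.93 and 8.47 in 129 TG mice, against 9.23 in WT, and 8.46, 8.63 and 8.55 in BALB/cJ TG mice, against 9.11 in WT. For C3H the levels were 8.61, 8.42 and 8.45 in TG mice, against 8.91 in WT. All TG mice were below their own strain's WT mice, and 16 of 17 were below the lowest WT mouse, the exception being 129 TG mouse 2 at 8.93. Of all genes, 21.1% had TG means on one side of WT in all 6 strains (10.8% higher, 10.3% lower), as had 4 members: Wnt5a, Wnt7b and Frzb above and Lef1 below.

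T cell genes were also lower in TG lungs over all strains, as were the endothelial, smooth muscle and club cell genes given below. All 3 T cell markers measured, of 10 listed, fell: Ccr7 by 0.58, Cd28 by 0.52 and Cd2 by 0.36 on the log2 scale (limma adjusted p = 0.00015, 0.00054 and 0.0031). Their mean level was 8.73 to 9.31 in TG mice and 9.28 to 9.70 in WT mice. The part of T cells in the lower Lef1 level was not tested.

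**Figure D2:**
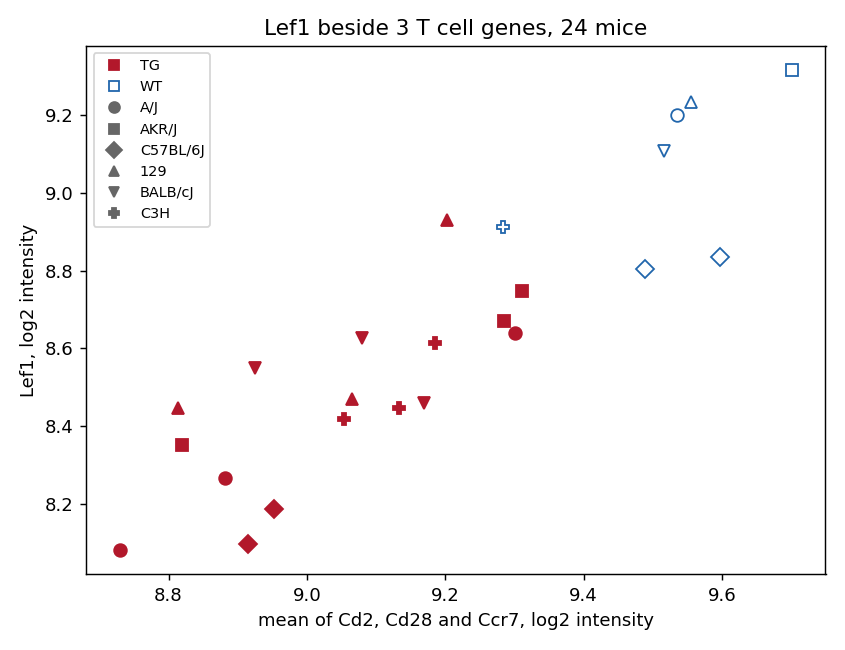
Lef1 level against the mean level of Cd2, Cd28 and Ccr7 (both log2 intensity), 1 point per mouse. Filled red symbols are TG mice, open blue symbols are WT mice, and shapes give the strain. TG mice lie at 8.08 to 8.93 for Lef1 and 8.73 to 9.31 for the T cell mean, against 8.80 to 9.31 and 9.28 to 9.70 in WT mice.

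Axin2, a scaffold of the β-catenin destruction complex that β-catenin itself induces, read 8.54 to 9.12 in TG mice (median 8.79) and 8.76 to 8.88 in WT mice (median 8.86). The difference over all strains was -0.03 ± 0.05 (log2, SE; 95% interval -0.12 to 0.07; limma adjusted p = 0.75). TG means were above WT in 4 strains and below in 2, A/J and AKR/J.

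Strain by strain, most member calls fell in C57BL/6J and A/J, the strains with the most genes called over the whole table. With 2 TG and 2 WT mice, C57BL/6J had smaller SEs than strains with 3 TG and 1 WT. For Wnt5a the SE was 0.20 in C57BL/6J and 0.23 in A/J, so counts of calls are not on equal terms. In C57BL/6J, 6 of 10 members were called (14.3% of all genes). Frzb was higher in TG mice by 1.68, Dkk2 by 1.15, Wnt5a by 1.07, Wnt7b by 0.71 and Lgr6 by 0.63, and Lef1 was lower at -0.67 (log2 differences). Dkk2 was chosen with this rise known, so its call here adds no information about the members. In A/J, 3 members were called (14.9% of all genes): Frzb at 1.51 and Wnt7b at 0.72 higher, and Lef1 lower at -0.87. In 129, Wnt7b alone was called, at 0.63 (2.95% of all genes). No member was called in AKR/J (2.11% of all genes), BALB/cJ (2.26%) or C3H (0.822%) by limma, where 4, 3 and 2 members had an unadjusted p under 0.05. Of the C57BL/6J calls, that of Lef1 was lost when any of the 4 mice was left out (adjusted p up to 0.084), and that of Lgr6 without WT mouse 2 (0.077) or TG mouse 1 (0.12). The 129 call of Wnt7b was lost without TG mouse 3 (0.067).

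**Figure D3:**
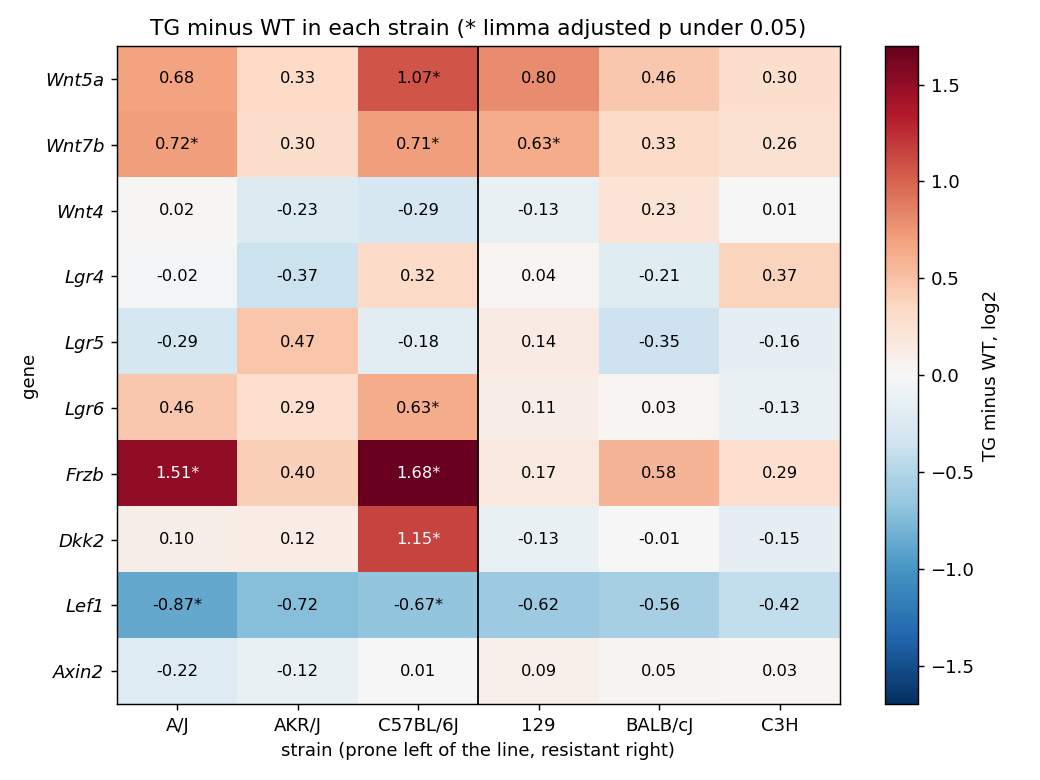
TG minus WT difference (log2) of each gene in each strain, with prone strains left of the black line and asterisks at limma adjusted p under 0.05. Red cells are higher and blue cells lower in TG mice; Lef1 is blue in all 6 strains, Wnt5a, Wnt7b and Frzb are red in all 6, and the Dkk2 value of 1.15 in C57BL/6J has no equal in its row.

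The next comparison set the strains that the series design calls prone beside those it calls resistant. Within prone strains, Frzb (1.20 ± 0.18), Wnt5a (0.70 ± 0.13), Wnt7b (0.58 ± 0.08), Lgr6 (0.46 ± 0.09) and Dkk2 (0.46 ± 0.06) were higher and Lef1 (-0.76 ± 0.11) lower in TG than in WT mice (log2, SE; limma). That makes 6 of 10 members, where 23.5% of all genes were called (12% higher, 11.5% lower). The count includes Dkk2, which was chosen for its C57BL/6J level. Within resistant strains, Wnt5a (0.52 ± 0.13) and Wnt7b (0.41 ± 0.08) were higher and Lef1 (-0.53 ± 0.11) lower, or 3 of 10 members, where 10.7% of all genes were called (4.92% higher, 5.78% lower). These 3 resistant calls were lost when 129 was left out of the set, its mice staying in the fit. The differences were then 0.38, 0.29 and -0.49 (limma adjusted p = 0.23, 0.12 and 0.055). That of Wnt5a was also lost with BALB/cJ left out of the set (0.55, adjusted p = 0.0552). Without C57BL/6J, the prone difference of Dkk2 was 0.11 (adjusted p = 0.38).

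A call in one set and not in the other does not show that the sets differ, so the difference of the TG effects was tested itself. Dkk2 alone passed, with a prone minus resistant difference of 0.56 ± 0.09 (log2, SE; limma adjusted p = 0.015), where 0.474% of all genes passed. Without C57BL/6J it was 0.21 (adjusted p = 0.48), and without 129 it was 0.54 (adjusted p = 0.052). Dkk2 was chosen with its level in C57BL/6J known, and that strain is in the prone set. Its pass here therefore lends it no independent support. Frzb differed by 0.85 ± 0.26 (95% interval 0.30 to 1.41) and Lgr6 by 0.46 ± 0.13 (95% interval 0.18 to 0.74), with limma adjusted p of 0.16 and 0.13, so neither passed. The intervals of the remaining members were -0.21 to 0.56 for Wnt5a, -0.07 to 0.41 for Wnt7b, -0.40 to -0.01 for Wnt4, -0.36 to 0.18 for Lgr4, -0.14 to 0.39 for Lgr5, -0.56 to 0.11 for Lef1 and -0.36 to 0.04 for Axin2.

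A test across all 6 strains also called Dkk2 alone among the members, and it used the same C57BL/6J mice. The TG effect on Dkk2 depended on strain (limma F = 26.4, adjusted p = 0.0014), where 1.34% of all genes passed, and the other members had adjusted p of 0.17 or more. Set against the mean of the other 5 strains, the C57BL/6J effect on Dkk2 was larger by 1.16 ± 0.10 (log2, SE; limma adjusted p = 4.9e-05), where 0.807% of all genes passed. Frzb came next with 1.09 ± 0.32 (95% interval 0.42 to 1.77; adjusted p = 0.14). Since Dkk2 was chosen with its C57BL/6J level known, these values describe it and lend it no independent support.

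The genes nearest to Dkk2 were found by the Euclidean distance between strain differences over the 6 strains. They were Kng2, a kininogen gene (distance 0.261), Fhod3, a formin that organises actin (0.351), Dnm3os, a long non-coding RNA (0.446), Clca3a1 (0.449) and Tmem26 (0.502). In C57BL/6J their TG minus WT differences were 0.96, 1.16, 0.74, 0.85 and 1.06 (log2), and in the other strains they lay between -0.27 and 0.35. A high C57BL/6J value was part of how these genes were chosen.

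**Figure D4:**
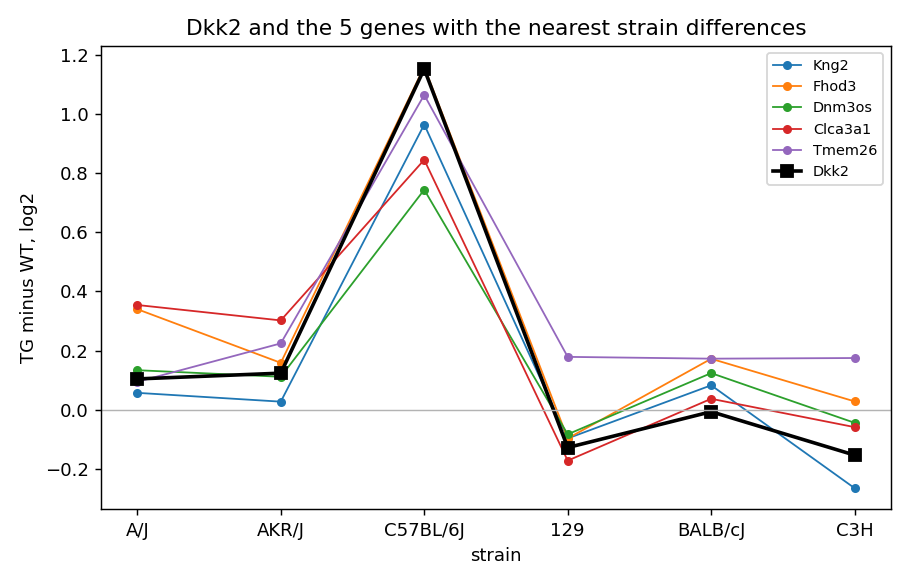
TG minus WT difference (log2, vertical axis) in each strain for Dkk2 (black squares) and the 5 genes with the smallest Euclidean distance to it (coloured points). All 6 lines have their highest point in C57BL/6J, at 1.15 for Dkk2 and 0.74 to 1.16 for the others. The 5 were chosen for nearness to Dkk2, so the shared peak is no separate result.

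TG lungs of prone and resistant strains were then compared in level. Frzb (0.81 ± 0.14), Wnt5a (0.48 ± 0.10), Dkk2 (0.48 ± 0.05) and Lgr6 (0.45 ± 0.07) were higher in prone TG lungs, and Axin2 (-0.17 ± 0.05) was lower (log2, SE), with limma adjusted p of 0.0011, 0.0036, 7.7e-06, 0.00049 and 0.033. These are 5 of 10 members, Dkk2 with its known C57BL/6J level included, where 11.1% of all genes were called (6.44% higher, 4.69% lower). No member separated the sets without overlap (0.126% of all genes did). Lgr6 read 8.72 to 9.37 in the 8 prone TG mice (median 8.85) and 7.98 to 9.04 in the 9 resistant TG mice (median 8.36), with BALB/cJ at 8.94 to 9.04 above 6 of the prone mice. Axin2 read 8.54 to 8.91 in prone TG mice (median 8.68) and 8.78 to 9.12 in resistant TG mice (median 8.88). Its call was lost in 9 of the 24 fits that left out a mouse, with differences of -0.20 to -0.15 over all 24, and without 129, A/J, AKR/J or BALB/cJ (adjusted p = 0.15, 0.17, 0.12 and 0.0589). The Wnt5a difference without C57BL/6J was 0.14 (adjusted p = 0.41), and that of Dkk2 was 0.18 (limma adjusted p = 0.029). Strain and set cannot be told apart within a strain, so these values speak of these 6 strains. WT means over mice in prone and resistant strains were 8.47 and 8.09 for Wnt5a and 5.74 and 5.82 for Frzb. They were 7.40 and 7.50 for Dkk2, 8.48 and 8.47 for Lgr6 and 8.83 and 8.84 for Axin2. The Wnt5a mean was thus higher in prone strains among WT mice also, which was not tested. Its difference of TG effects between the sets was 0.17 (limma adjusted p = 0.82).

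Markers of several cell types differed between TG and WT lungs beside these genes. Fibroblast genes were mixed: of 8, Lum and Mfap4 were higher (0.45 and 0.38), Tcf21 was lower (-0.68), and the mean level was 11.01 to 11.40 in TG mice and 10.91 to 11.35 in WT mice. Between prone and resistant TG mice, 4 of the 8 were lower in prone mice, among them Tcf21 at -0.79. Also lower in prone TG mice were 3 of 5 heart muscle genes, 2 of 3 club cell genes, 2 of 4 endothelial genes, 1 of 3 ciliated cell genes and 1 of 4 mesothelial genes, and of 7 alveolar type 1 genes 1 was higher and 2 were lower. None of 7 alveolar type 1 genes was called over all strains (limma; 2 at an unadjusted p under 0.05), with means of 11.86 to 12.51 in TG mice and 12.07 to 12.47 in WT mice. By strain, 5 of 7 alveolar type 1 genes were lower in A/J TG mice and 2 of 7 in C57BL/6J TG mice, and the test for strain dependence called 3 of 7 (Ager, Clic5 and Akap5). Their mean was at most 12.11 in A/J TG mice, against 12.47 in WT, and 12.46 to 12.51 in AKR/J TG mice, against 12.19 in WT. All 4 smooth muscle genes, all 4 endothelial genes, all 3 club cell genes and 4 of 5 heart muscle genes were lower in TG mice over all strains. Of 4 mesothelial genes 1 was higher and 1 lower, of 3 ciliated cell genes 1 was lower, and of 7 alveolar type 2 genes 1 was higher. Within prone strains all 3 ciliated cell genes were lower, and in C57BL/6J 2 of 7 alveolar type 2 genes were lower. Mean levels of smooth muscle genes were 10.02 to 10.53 in TG mice and 10.33 to 10.62 in WT mice. Mean levels of endothelial genes were 11.60 to 12.20 in TG mice and 12.15 to 12.57 in WT mice, and those of club cell genes 11.43 to 12.15 in TG mice and 12.30 to 12.46 in WT mice. Heart muscle genes averaged 9.38 to 10.65 in TG mice and 10.52 to 10.94 in WT mice. The part of these cell types in the members' levels was not tested.

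Other genes of the pathway came from a list of 89, of which 61 were measured. Over all strains 20 of the 61 were called, 14 higher and 6 lower in TG lungs, or 32.8% beside 26.7% of all genes, with a median difference of 0.03 (log2). Receptors were the role with the most higher calls, 5 of 10 and none lower: Ror1 (0.97 ± 0.08), a Wnt5a receptor, Fzd2 (0.80 ± 0.05), Fzd6 (0.30 ± 0.06), Ror2 (0.21 ± 0.06), which also binds Wnt5a, and Ptk7 (0.20 ± 0.05). Ror1 levels were 9.68 to 10.70 in TG mice (median 10.07) and 8.97 to 9.33 in WT mice (median 9.17), with no overlap. Fzd2 levels were 9.43 to 10.27 in TG mice and 8.70 to 9.41 in WT mice, also with no overlap.

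Among 7 target genes, Ccn4 (1.08 ± 0.08), a matricellular protein, Cd44 (0.75 ± 0.08), the hyaluronan receptor, Sp5 (0.36 ± 0.08) and Nkd2 (0.26 ± 0.07), which binds Dishevelled, were higher, and Tnfrsf19 (-0.30 ± 0.05) was lower (log2, SE). Ccn4 levels were 8.01 to 9.27 in TG mice (median 8.93) and 6.96 to 8.16 in WT mice (median 7.95), with 129 mice lowest in both genotypes. Cd44 levels were 11.31 to 12.37 in TG mice and 10.89 to 11.23 in WT mice, with no overlap. Axin2, the target gene counted with the members, was not among those called.

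Of the 11 other ligands, Wnt2b alone was called, and it was lower (-0.49 ± 0.07), with levels of 6.99 to 7.62 in TG mice and 7.29 to 8.17 in WT mice. Wls, which carries Wnt proteins to the cell surface, was higher (0.22 ± 0.03), and Rspo3, 1 of 4 R-spondins, was lower (-0.19 ± 0.06). The Rspo3 call was lost without C57BL/6J (-0.12, limma adjusted p = 0.19), C3H (0.072) or BALB/cJ (0.061), and without C3H WT mouse 1 (0.086), C57BL/6J WT mouse 2 (0.0552) or C57BL/6J TG mouse 2 (0.0552). The 2 membrane ubiquitin ligases that remove Frizzled receptors went opposite ways, Rnf43 higher (0.42 ± 0.06) and Znrf3 lower (-0.19 ± 0.05). The Znrf3 call was lost without C57BL/6J (limma adjusted p = 0.079), A/J (0.0546) or the A/J WT mouse (0.0594). None of 8 secreted inhibitors was called (limma; 0 at an unadjusted p under 0.05). Of 8 cytoplasmic genes Dvl3 was higher (0.15 ± 0.05), and of 7 nuclear genes Ctnnbip1 (0.21 ± 0.06) and Pygo2 (0.14 ± 0.04) were higher and the co-repressors Tle4 (-0.44 ± 0.04) and Tle1 (-0.21 ± 0.07) lower. The Tle1 call was lost without A/J (limma adjusted p = 0.071), AKR/J (0.072) or C57BL/6J (0.063), and without the WT mouse of A/J (0.0605), AKR/J (0.0552) or BALB/cJ (0.0579).

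**Figure D5:**
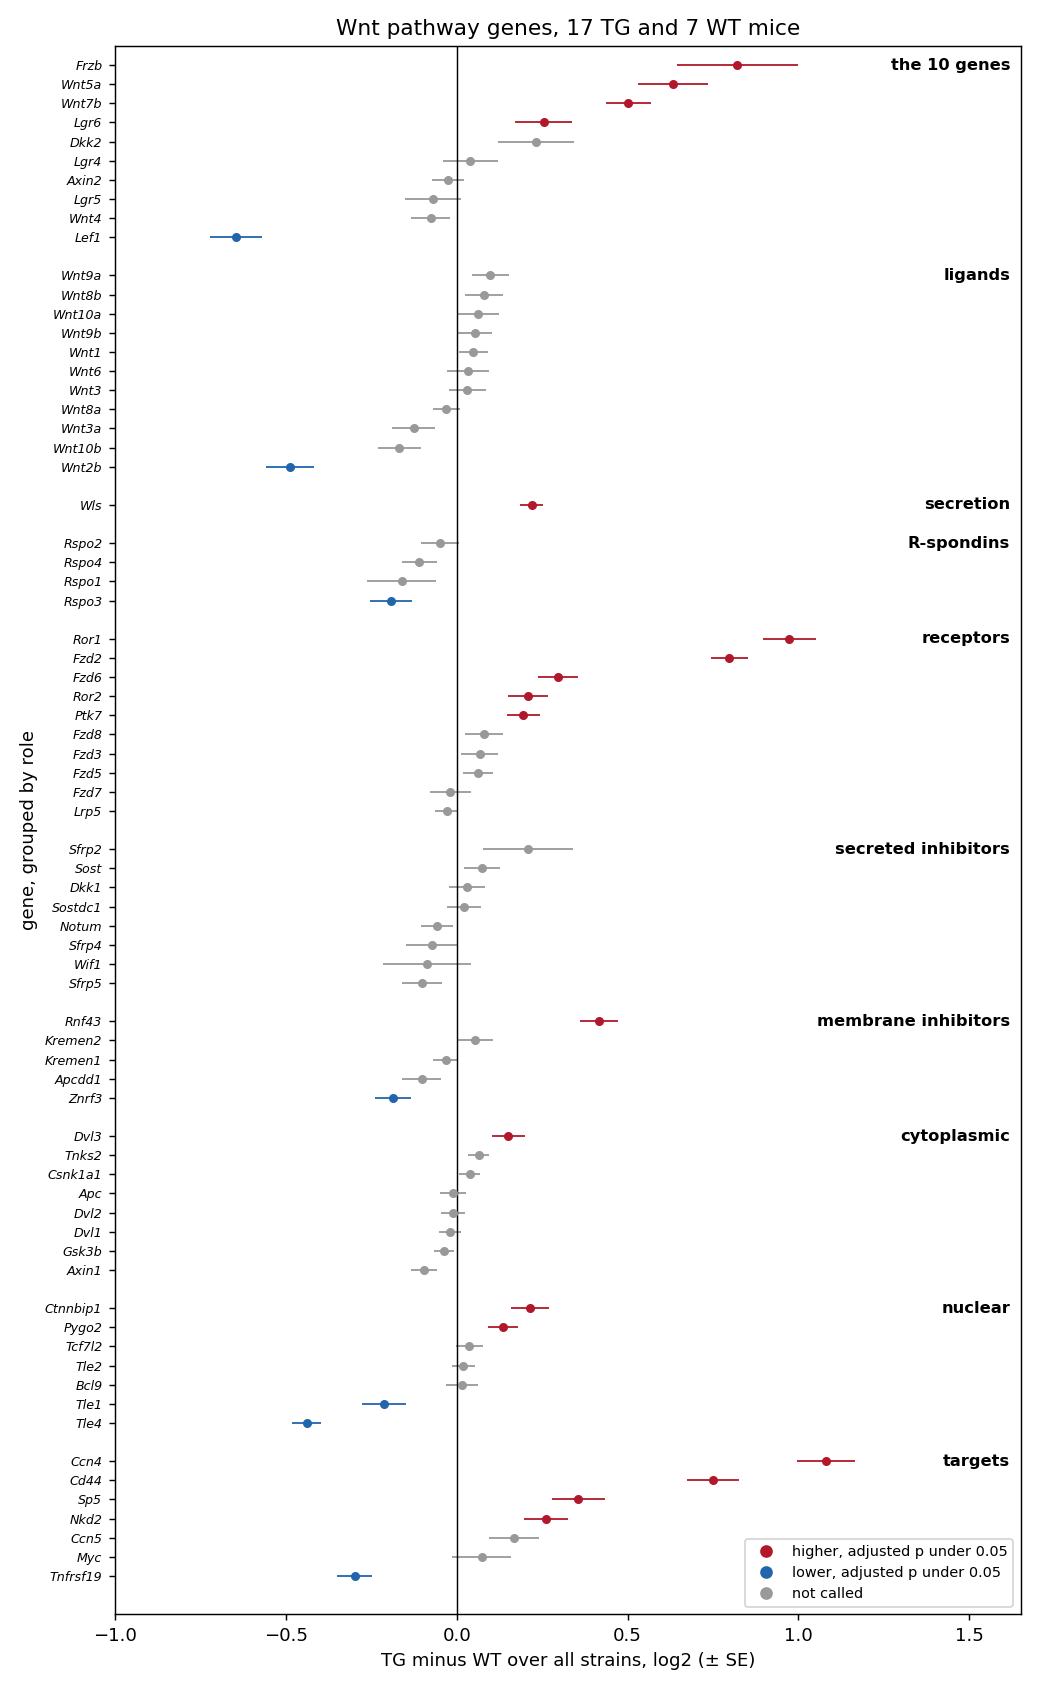
TG minus WT difference over all strains (log2, points, with bars of 1 SE) for the 10 genes and 61 other Wnt pathway genes, grouped by role. Red is higher and blue lower at limma adjusted p under 0.05, and grey is not called; Ccn4 (1.08) and Ror1 (0.97) lie farthest right and Lef1 (-0.65) farthest left.

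None of the 61 passed the test of prone minus resistant TG effects by limma (3 had an unadjusted p under 0.05), where 0.474% of all genes passed. In the test of strain dependence 1 passed, or 1.64% of the 61 beside 1.34% of all genes. That gene was Wif1, a secreted Wnt-binding inhibitor (F = 8.01, adjusted p = 0.046). Its levels in BALB/cJ were 7.94 to 8.54 in TG mice, against 9.32 in the single WT mouse, a difference of -1.16 ± 0.20. The WT mice of the other strains read 7.18 to 7.79, and the BALB/cJ value of Wif1 has 1 WT mouse behind it.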

How the data were processed

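Values ran from 3.41 to 14.75, and the deposited table was therefore taken to hold log2 intensities per probe set. Per the labels, RNA was purified from fresh lung with a phenol-based reagent and Qiagen columns, and the Ambion WT Expression kit gave the biotin-labelled target. What the authors did to normalise the values, with which software and genome build, is not given in the sources used here, nor are scan or extraction batches, and no further scaling was applied. Of 25285 probe sets, 25284 were complete, and 14539 carried 1 gene symbol in the platform annotation (781 several, 9964 unnamed here). Entrez identifiers linked 14480 of these to RefSeq, which changed 0 symbols. The probe set of highest mean stood for each of 13499 genes, 590 of which had several. Sequence differences between strains can change probe binding.

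TG and WT mice were compared with limma 3.58.1 in R 4.3.3 (two-sided) with strain as a fixed effect (17 residual degrees of freedom). The remaining tests were contrasts in a fit of 12 group means (12 residual degrees of freedom, median residual SD 0.104). Benjamini-Hochberg adjustment ran over all genes. The numbers of the mice were not taken as pairs. C57BL/6J TG 1 and WT 1 deviated together at r = 0.058. TG mice across 5 strains did so at -0.154 to 0.128 with the same number and -0.182 to 0.23 with another. The 5 strains with 1 WT mouse could not be checked for pairs of TG and WT mice. Scripts were tested on simulated data. Titles number the arrays within strain and genotype, and each array was taken as a separate mouse. P-values measure the spread between these mice, and over all strains also the differences of the TG effect between strains. The number of arrays limits the precision.

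The members, the wider Wnt list and the marker lists were chosen with earlier results of these data known. All 10 members are named. From the wider list the text names at most the 8 largest calls each way over all strains, at most 4 genes called for the prone minus resistant difference or for strain dependence, and the genes of any count of 5 or fewer. For Dkk2 it names the 5 genes of smallest Euclidean distance. Python 3.11.15 served for tables (pandas 2.3.3) and figures (matplotlib 3.10.9). Alternatives were array weights, quantile normalisation, the mean of all probe sets, a filter on genes under the lower quartile of means (10124 kept), eBayes with trend and robust fitting, equal weight of strains, the replicate number as a block, the fibrosis code of the labels, C57BL/6J mice alone, and leaving out each mouse and each strain. Leaving strains out of the prone and resistant sets was added after the data were seen.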

Additional observations from a re-analysis of the deposited data

Results flagged for a closer look

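The TG effect on Dkk2 differed between the strain sets, by 0.56 on the log2 scale in prone minus resistant strains (limma adjusted p = 0.015), and across the 6 strains (F = 26.4, adjusted p = 0.0014). In C57BL/6J it exceeded the mean of the other 5 strains by 1.16 (adjusted p = 4.9e-05), and both C57BL/6J TG mice were above every other mouse. Without C57BL/6J the prone minus resistant difference was 0.21 (limma adjusted p = 0.48). Dkk2 was chosen with its C57BL/6J level known, so these values describe it and lend it no independent support. The effect on Wif1 differed across strains (F = 8.01, adjusted p = 0.046), with the BALB/cJ WT mouse at 9.32. Wif1 was the 1 gene of 61 in the wider list to pass, or 1.64% beside 1.34% of all genes. Groups held at most 3 mice, too few for a search for single mice far from their group.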

How the results depend on the processing

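The number of arrays limits precision, 5 strains have 1 WT mouse, and batches were not tested because the sources used here name none. Leaving out a mouse gave ranges of 3 to 4 members higher and 1 lower over all strains, 5 higher and 1 to 2 lower in prone strains, 2 higher and 1 lower in resistant strains, and 4 to 5 higher and 0 to 1 lower in prone against resistant TG levels. It left 1 member called for the prone minus resistant effect, for strain dependence and for C57BL/6J against the others, with 7 to 10 member and strain pairs called higher and 1 to 4 lower (8 and 2 in the main fit), 12 to 15 other Wnt genes higher, 5 to 7 lower, and 2955 to 3682 of all genes. A strain whose only WT mouse was left out gave no difference. Array weights gave 2 members lower in prone strains and 3 lower in prone TG levels, and quantile normalisation gave 2 lower in prone strains. The replicate block gave 0 members lower in prone TG levels, where the Axin2 call was lost (limma adjusted p = 0.0525). It changed no other count of members past 1.5 times, and it lost the Tle1 call (limma adjusted p = 0.084). Leaving strains out of the sets was chosen after seeing the data. Without 129, 0 members were higher and 0 lower in resistant strains, 0 lower in prone TG levels, and 0 called for the difference of effects. Without A/J, 2 were lower in prone strains and 0 lower in prone TG levels. Without AKR/J, 2 were called for the difference of effects, without BALB/cJ 1 was higher in resistant strains, and without C57BL/6J 0 were called for the difference of effects. Signs turned for uncalled values: Wnt4 with the mean of all probe sets (0.016), Lgr4 with the replicate block (-0.0068), without C3H or its WT mouse (-0.023) and without C57BL/6J (-0.036), Axin2 without A/J or its WT mouse (0.011) and Dkk2 over all strains without C57BL/6J (-0.012). Leaving out each mouse gave -0.023 to 0.12 for Lgr4 and -0.047 to 0.011 for Axin2. The prone minus resistant value of Dkk2 turned to -0.56 under the fibrosis code, by construction. With equal weight of strains Dkk2 was called over all strains (0.18, limma adjusted p = 0.00369). This value came from the fit of 12 group means, so the fit changed along with the weights. Of the single-gene values recomputed, 1629 kept their direction and side of the threshold, 53 lost the call, 1 gained it and 9 turned. The cause was not tested.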
